A study of Mus musculus with 6 samples.

Results

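Lum (lumican), Dcn (decorin), Bgn (biglycan), Fmod (fibromodulin), Ogn (osteoglycin), Prelp, Omd (osteomodulin) and Aspn (asporin) are 8 genes of the small leucine-rich proteoglycan family. They were chosen by name, and all probe sets of the array whose only gene symbol was one of these were used. This gave 19 of 45101 probe sets, and 8 of 18193 genes that have such a probe set. All 8 genes and all 19 probe sets passed the filter on low signals.

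In the series, expression was measured in the whole mammary gland of 6 females on a mixed background of 129/FVB/Black Swiss, with 1 mouse per array, to look for genes regulated by Brca1. Each of 3 stages of the mammary cycle is represented by 1 Brca1 mutant and 1 control. In the virgin pair, at 6 months of age, and in the lactating pair, taken at 2 months of age on day 1 of lactation, the mutants were Brca1 D11/D11 and the controls Brca1 D+/+, and both mice of each pair were p53+/-. The pregnant pair, at day 16.5 of pregnancy and 5 months of age, was a Brca1 co/co mutant and a Brca1 +/co control, which both carried MMTV-Cre and for which the labels name no p53 allele. The promoter of the mouse mammary tumour virus is active mainly in epithelial cells of the gland, whereas D11 is carried in the germline. The design text of the series gives all mutants the germline genotype, and the labels of the individual mice were used. In the labels, the array date of the lactating glands differs from that of the other 4. The stage can therefore not be told apart from age, and in lactation also not from array date. In pregnancy it can also not be told apart from the Brca1 allele, MMTV-Cre or a possible difference in p53. With 1 mouse per group, the p-values rest on the spread left among 6 mice.

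Small leucine-rich proteoglycans are secreted proteins whose curved array of leucine-rich repeats binds collagen and sets the diameter and spacing of its fibrils. Most carry chains of chondroitin, dermatan or keratan sulphate, and several bind growth factors or receptors, such as TGF-beta or the Toll-like receptors. In the mammary gland they are made mainly by fibroblasts of the stroma, around ducts and alveoli that expand through pregnancy and secrete milk after birth.

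Several of these genes lie side by side. In the GRCm38.p6 annotation of RefSeq, Dcn and Lum lie on chromosome 10 with their relatives Kera and Epyc, Aspn, Omd and Ogn on chromosome 13 with Ecm2, and Prelp and Fmod on chromosome 1 with Optc. Bgn lies on the X chromosome without a family member beside it. RefSeq promoters were matched for 6 of the 8 genes, all but Lum and Dcn. The 150 bases before the annotated start are shown for the 3 neighbours Aspn, Omd and Ogn, and for Fmod and Bgn. Aspn, Omd and Ogn were lower in lactation, as was Prelp, which is not printed. The main probe sets of Fmod and Bgn were not called lower in lactation than in pregnancy. However, 1 other Fmod and 2 other Bgn probe sets were, and the main Bgn probe set was called lower than in virgin glands. No link between sequence and stage was tested. The windows are chr13:49544293-49544442, chr13:49582312-49582461, chr13:49607865-49608014, chr1:134037104-134037253 and chrX:73483451-73483600, all on the plus strand. Capitals mark matches, on either strand, to a TATA box, a CCAAT box, a GC box, an AP-1 motif or a TEAD motif, whose letters are given after the sequences.
Aspn: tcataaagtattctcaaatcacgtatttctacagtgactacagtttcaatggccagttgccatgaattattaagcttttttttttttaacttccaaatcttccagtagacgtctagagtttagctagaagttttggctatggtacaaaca
Omd: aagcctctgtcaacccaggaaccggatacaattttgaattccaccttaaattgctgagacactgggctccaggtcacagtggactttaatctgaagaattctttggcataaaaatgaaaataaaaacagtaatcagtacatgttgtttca
Ogn: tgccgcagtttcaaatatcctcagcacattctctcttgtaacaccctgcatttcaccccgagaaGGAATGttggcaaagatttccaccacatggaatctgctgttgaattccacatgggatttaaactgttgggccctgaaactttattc
Fmod: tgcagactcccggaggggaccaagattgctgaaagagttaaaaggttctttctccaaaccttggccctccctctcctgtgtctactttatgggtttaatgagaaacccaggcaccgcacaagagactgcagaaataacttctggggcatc
Bgn: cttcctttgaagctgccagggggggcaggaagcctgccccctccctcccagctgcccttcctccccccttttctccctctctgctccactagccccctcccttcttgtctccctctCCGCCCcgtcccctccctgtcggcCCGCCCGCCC

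The 3 neighbours on chromosome 13 had GC-poor windows, at 33.3% GC for Aspn, 38.0% for Omd and 44.0% for Ogn, against a median of 54.0% over 32851 promoter windows of the same length. Fmod had 49.3% and Bgn 70.0%, and the Prelp window, not printed, had 56.0%. The TEAD motif was searched as GGAATG, and 1 match was found in Ogn, where 7.6% of all windows held it. The GC box was searched as GGGCGG. The Bgn window held 3 matches, of which the last 2 overlap each other, and 28.6% of all windows held at least 1. CCAAT was found once, in the Prelp window, against 24.5% of all windows. The TATA box was searched as TATAAA and was found in none of the 6 windows, against 7.6% of all. The AP-1 motif, searched as TGANTCA, was also found in none, against 4.2% of all. The E-box CANNTG, not in capitals because 47.7% of windows hold it, matched in Aspn, Ogn and Bgn. A match is a description of the letters and not a binding site.

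The values are MAS5 signals, the summarised brightness of the probes of 1 probe set. Every array had been scaled to a 2%-trimmed mean of 500, while array medians ran from 120 to 158 in virgin and pregnant glands and were 231 in the lactating control and 211 in the lactating mutant. The 3'/5' signal ratio of beta-actin, a sign of degraded RNA where it is high, was 2.74 and 2.03 in control and mutant virgin glands, from 1.37 to 1.91 in the other arrays, and that of Gapdh was 3.50 in the virgin control and 0.73 to 1.52 elsewhere. Brca1 itself was dim, at 137 (control) and 487 (mutant) in the virgin glands, 159 and 288 in the pregnant ones and 238 and 157 in the lactating ones, a log2 ratio of mutant to control of 0.58 ± 0.37 (SE, n = 3 pairs; limma adjusted p = 0.932). The sources used here do not say where its probes lie relative to the deleted part, so its signal is no check of the mutation. Wap, a milk protein, was at 382 and 885 in the virgin arrays and from 30644 to 47507 in the pregnant and lactating arrays, and Csn2, another milk protein, was bright in all 6, from 30621 to 44423. As a guide to signals without transcript, 20 probe sets of Y-linked genes in these female mice had a median of 33.6 and a 95th percentile of 260.4.

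Lum, Dcn, Ogn, Bgn and Aspn were bright in virgin glands, from 969 to 20395 on their main probe sets, and most of the 8 genes were several-fold lower on the first day of lactation. Against virgin glands, 7 of the 8 genes were called lower in lactation, namely Lum, Ogn, Dcn, Aspn, Omd, Prelp and Bgn, where 28.2% of 11341 tested genes were called lower and 23.8% higher. Against pregnant glands, 6 were called lower, all of these but Bgn, where 17.0% of genes were called lower and 14.9% higher. In pregnancy, 2 of the 8 were called lower than in virgin glands, Lum and Ogn, against 8.09% of genes lower and 6.61% higher. None of the 8 was called higher in any comparison of stages. Prelp and Omd had mean log2 values of 7.766 and 7.815. They passed the filter of 7.715 through their virgin and pregnant glands, except for the pregnant mutant of Prelp, which lay under it at a signal of 112. Both genes lay under it in both lactating glands, so their place in these counts follows in part from the filter. With the filter at the 75th percentile, 5 of the genes were tested (Lum, Dcn, Bgn, Ogn and Aspn). Of these, 5 were lower in lactating than in virgin glands and 4 lower than in pregnant glands. Among all 6674 genes tested under that filter, 2194 and 1390 were called lower in these comparisons. Fmod alone among the 8 was called in no comparison on its main probe set. A gene is called here at a limma adjusted p under 0.05, and log2 ratios are on the log2(signal + 52.1) scale, which understates the change of dim genes.

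The median log2 ratio of the 8 genes was -0.51 for pregnant against virgin, -1.97 for lactating against pregnant and -2.09 for lactating against virgin, beside -0.06, -0.04 and -0.10 over all tested genes. Centring the arrays on their medians moved these last 3 values to -0.23, -0.45 and -0.68, and the share of higher among all called genes from 45.0% to 27.8%, from 46.8% to 16.7% and from 45.8% to 18.8%. Under that centring 3, 6 and 7 of the 8 genes were called lower, beside 1386, 3794 and 5611 of all 11341 genes. Without it, 917, 1924 and 3196 of all genes were called lower. In whole glands, fewer cells of a type and less RNA per cell cannot be told apart.

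**Figure D1:**
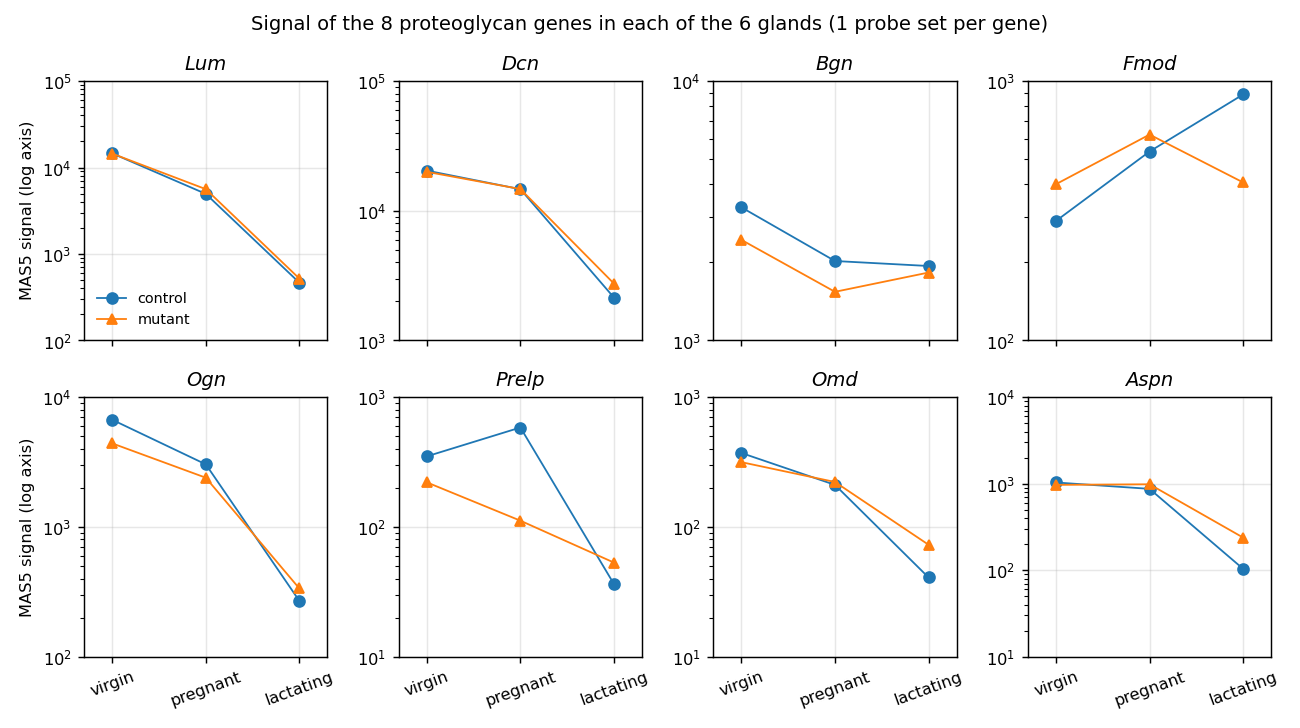
MAS5 signal (log axis, a different range in each panel) of the main probe set of each of the 8 genes in the control (circle) and mutant (triangle) gland of each stage, 1 mouse per point. Lum runs from 14563 and 14477 in the virgin glands to 466 and 519.7 in the lactating glands. For Fmod, both lactating glands, at 887.5 and 407, lie above both virgin glands, at 289 and 400.4. This Fmod difference is narrow between the mutants and was not called.

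Lum encodes lumican, a keratan sulphate proteoglycan that limits the lateral growth of collagen fibrils and was first described in the cornea. Its single probe set, 1423607_at, read 14563 in the virgin control and 14477 in its mutant, 4957 in the pregnant control and 5619 in its mutant, and 466 in the lactating control and 519.7 in its mutant. The stages did not overlap, and the 2 mice of a stage lay close together compared with the steps between stages. The mean signal was 36.4% of the virgin mean in pregnancy and 3.39% in lactation. Lum fell by 1.45 ± 0.18 on the log2 scale from virgin to pregnant glands (SE, n = 2 mice per stage; limma adjusted p = 0.00414). From pregnant to lactating glands it fell by 3.29 ± 0.18 (adjusted p = 0.000645), and the whole difference of lactating from virgin glands, -4.74 ± 0.18 (adjusted p = 2.565e-05), was the third lowest log2 ratio of the 11341 genes.

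Fmod encodes fibromodulin, which binds the same region of collagen as lumican and guides cross-linking. Its main probe set, 1415939_at, read 289 and 400.4 in the control and mutant virgin glands, 535 and 622 in the pregnant pair, and 887.5 and 407 in the lactating pair. Both virgin glands were below both pregnant and both lactating glands, whereas the pregnant and lactating glands overlapped, with the lactating control highest. The log2 ratio was 0.68 ± 0.35 for pregnant against virgin (limma adjusted p = 0.233), 0.06 ± 0.35 for lactating against pregnant (adjusted p = 0.908) and 0.74 ± 0.35 for lactating against virgin (adjusted p = 0.115), so none passed. The last value varied with the array left out: it was 0.072 without the lactating control (adjusted p = 0.860) and 0.33 without the virgin control (0.593), while without the lactating mutant it was 1.41 and was called higher (0.00471).

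Fmod has 6 probe sets, the other 5 of a type prone to cross-hybridisation, and they differed in lactation. The brightest of them on average, 1456084_x_at, read 357 and 527 in the virgin pair, 880.0 and 1176 in the pregnant pair, and 442.4 and 183 in the lactating pair. Both of its lactating signals lay below both pregnant signals, and its log2 ratio of lactating to pregnant glands was -1.65 ± 0.38 (SE; adjusted p = 0.0156 over 19480 probe sets). This was the only Fmod probe set called in any comparison of stages. In the other 4, log2 ratios of lactating to virgin glands ran from -0.11 to 0.43 and none was called. Which of these probe sets follows the Fmod transcript was not tested.

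Prelp encodes a proteoglycan-like protein with a basic, heparin-binding end that links basement membranes to collagen. Its specific probe set, 1416322_at, was dim, at 350.1 and 220.5 in the control and mutant virgin glands, 584 and 112 in the pregnant pair, and 36.3 and 53.1 in the lactating glands. The virgin and pregnant glands overlapped and both lactating glands were lowest, at levels usual for the Y-linked probe sets. Prelp fell by 1.74 ± 0.51 from pregnant to lactating glands (SE; adjusted p = 0.0358), and the log2 ratio of lactating to virgin glands was -1.78 ± 0.51 (adjusted p = 0.0205). The first call was lost without the pregnant control or the lactating control (adjusted p = 0.362 and 0.166), and the second without either virgin array or the lactating control. The brighter probe set 1416321_s_at, which can match more than 1 transcript, read 3940.4 and 2061 in the virgin pair, 3172 and 1544 in the pregnant pair, and 764 and 726 in the lactating pair. Its lactating glands were lowest too, at -1.51 ± 0.27 (adjusted p = 0.00656) for lactating against pregnant and -1.87 ± 0.27 (adjusted p = 0.00104) for lactating against virgin.

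Omd encodes osteomodulin, a keratan sulphate proteoglycan known from bone and teeth. Its probe set 1418745_at read 371 and 316 in the virgin pair, 211 and 222 in the pregnant pair, and 40.8 and 72.9 in the lactating glands. The stages did not overlap, but the pregnant and lactating signals lay under 260.4, the 95th percentile of the Y-linked probe sets. Omd fell by 1.32 ± 0.32 from pregnant to lactating glands (SE; adjusted p = 0.0199), and lactating glands differed from virgin glands by -1.87 ± 0.32 (adjusted p = 0.00249). The step from virgin to pregnant glands, -0.56 ± 0.32, did not pass (adjusted p = 0.273). Without the pregnant control, the pregnant mutant or the lactating control, the step into lactation was not called (adjusted p = 0.128, 0.118 and 0.0641).

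Dcn encodes decorin, which carries 1 chondroitin or dermatan sulphate chain, binds collagen and takes up TGF-beta. Its main probe set, 1449368_at, read 20395 and 19946 in the control and mutant virgin glands, 14664 and 14695 in the pregnant pair, and 2141 and 2746.5 in the lactating glands. The stages did not overlap, and the lactating mean was 12.1% of the virgin mean. Dcn fell by 2.57 ± 0.20 from pregnant to lactating glands (SE; adjusted p = 0.000969), while the step from virgin to pregnant glands was -0.46 ± 0.20 (adjusted p = 0.160). The whole difference between lactating and virgin glands was -3.03 ± 0.20 (adjusted p = 0.000102). A dimmer probe set, 1441506_at, read 543 and 457 in the virgin pair, 266 and 312 in the pregnant pair, and 349 and 146 in the lactating pair. Its lactating mutant was below and its lactating control above both pregnant glands, and only lactating against virgin was called, at -0.96 ± 0.33 (SE; adjusted p = 0.0377).

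Bgn encodes biglycan, the closest relative of decorin, which also acts through Toll-like receptors when released from the matrix. Its main probe set, 1416405_at, read 3259 and 2442 in the control and mutant virgin glands, 2024 and 1540.1 in the pregnant pair, and 1937 and 1827 in the lactating pair. Both virgin glands were highest, and the pregnant and lactating glands overlapped. Lactating glands were lower than virgin glands by a log2 ratio of -0.57 ± 0.19 (SE; adjusted p = 0.0384), whereas the ratio to pregnant glands was 0.09 ± 0.19 (adjusted p = 0.748) and that of pregnant to virgin glands was -0.66 ± 0.19 (adjusted p = 0.0586). The call against virgin glands was lost when any array but the lactating mutant was left out (adjusted p up to 0.230), and after quantile normalization (0.119).

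The other probe sets of Bgn gave a larger difference in lactation. Probe set 1448323_a_at read 3499 and 2974 in the virgin pair, 2858 and 2371 in the pregnant pair, and 937 and 878 in the lactating pair. Probe set 1437889_x_at read 3905 and 3377 in the virgin pair, 2876 and 2467 in the pregnant pair, and 1070.0 and 628 in the lactating pair. In both, the stages did not overlap and the lactating glands were lowest. The log2 ratios of lactating to pregnant glands were -1.47 ± 0.19 (SE; adjusted p = 0.00288) and -1.64 ± 0.22 (adjusted p = 0.00294), so the main probe set stands apart from both. The probe sets differ in this by more than their standard errors, and the reason was not tested.

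Aspn encodes asporin, a relative of decorin with a stretch of aspartates that also binds collagen. Its probe set 1416652_at read 1032 and 969 in the control and mutant virgin glands, 871 and 984 in the pregnant pair, and 104 and 238 in the lactating pair. Virgin and pregnant glands overlapped, and both lactating glands were far below them. Aspn fell by 2.20 ± 0.28 from pregnant to lactating glands (SE; adjusted p = 0.00345), and lactating glands differed from virgin glands by -2.31 ± 0.28 (adjusted p = 0.000681). Probe set 1448421_s_at read 2128 and 1431 in the virgin pair, 1002 and 1639.7 in the pregnant pair, and 145 and 317 in the lactating pair. Its log2 ratio of lactating to virgin glands was -2.74 ± 0.35 (SE; adjusted p = 0.000646), again with both lactating glands lowest.

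Ogn encodes osteoglycin, also called mimecan, a keratan sulphate proteoglycan of connective tissue and bone. Its probe set 1419663_at read 6696 and 4404 in the control and mutant virgin glands, 3036 and 2395 in the pregnant pair, and 269 and 335 in the lactating glands. The stages did not overlap, and the lactating mean was 5.45% of the virgin mean. Ogn fell by 1.00 ± 0.24 from virgin to pregnant glands (SE; limma adjusted p = 0.0351) and by 2.96 ± 0.24 from pregnant to lactating glands (adjusted p = 0.00114). The first of these calls was lost without the pregnant control, the pregnant mutant or the virgin control (adjusted p = 0.143, 0.160 and 0.306). The whole difference was -3.96 ± 0.24 (adjusted p = 9.791e-05). The step into pregnancy was not seen on the other probe set, 1419662_at, which read 2335 and 2005 in the virgin pair, 2465.5 and 1564 in the pregnant pair, and 258 and 216 in the lactating glands. There the virgin and pregnant glands overlapped, at a log2 ratio of -0.14 ± 0.22 (SE; adjusted p = 0.713), while lactating glands were lower than pregnant glands by -2.81 ± 0.22 (adjusted p = 0.000745).

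**Figure D2:**
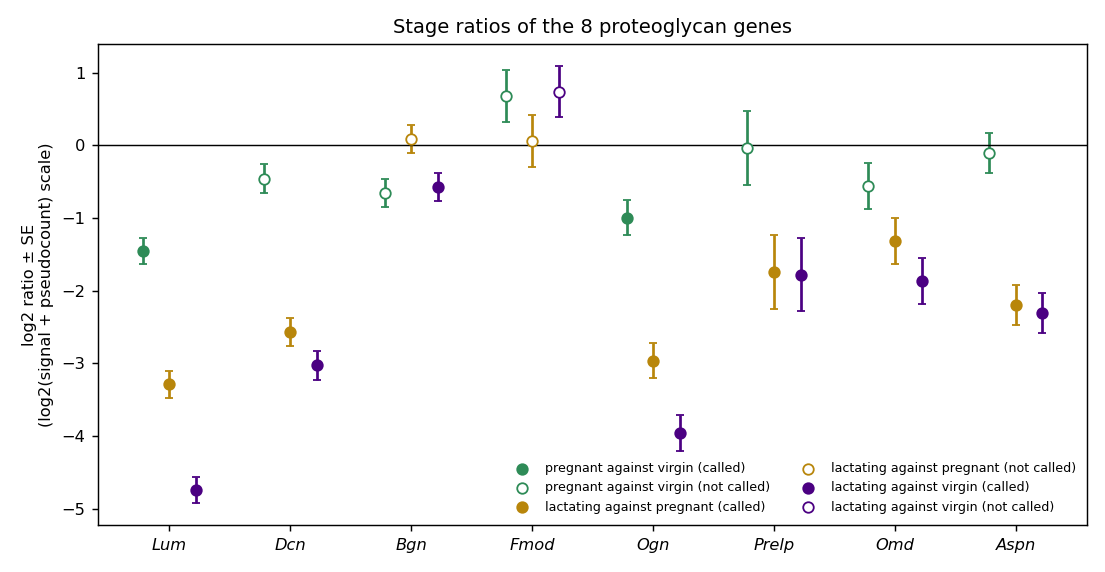
Log2 ratio between stages (log2(signal + pseudocount) scale) of the main probe set of each gene, with its standard error from the limma fit on 2 mice per stage. Filled points passed an adjusted p of 0.05. Lum and Ogn are the called genes for pregnant against virgin, and Fmod has no filled point.

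Taking every probe set by itself, 2 of 19 were called lower in pregnant than in virgin glands, 12 in lactating than in pregnant glands and 13 in lactating than in virgin glands, beside 6.26%, 16.8% and 25.1% of 19480 probe sets. All 6 probe sets not called lower in the last comparison belong to Fmod. Without a test, 7 of the 8 main probe sets had both virgin glands above both lactating glands, against 41.6% of genes. The same held for 6 of 8 between pregnant and lactating glands and for 5 of 8 between virgin and pregnant glands, against 36.5% of genes each. All counts for lactation again include the main probe sets of Prelp and Omd. Their place there follows in part from the filter, which they passed through their virgin and pregnant glands, except for the pregnant mutant of Prelp.

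**Figure D3:**
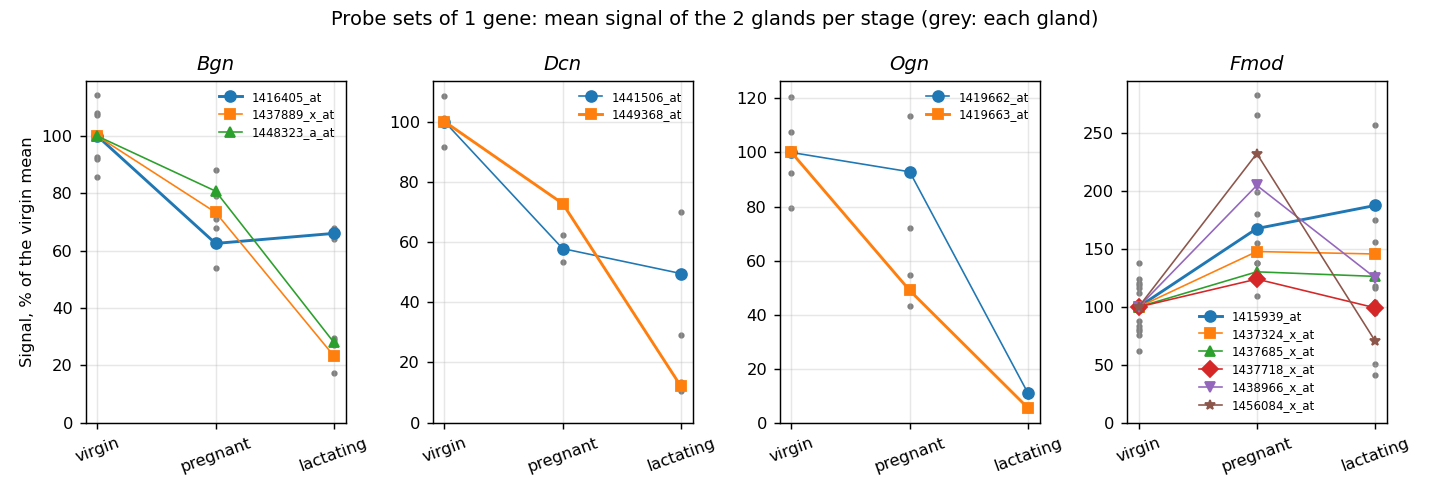
Signal of every probe set of Bgn, Dcn, Ogn and Fmod as a percentage of its own virgin mean. Lines join the means of the 2 glands per stage, the thick line is the main probe set, and small grey points are single glands. The main Bgn probe set stays at 66.0% of its virgin mean in lactation and the other ones at 23.3% and 28.0%.

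In their timing, the main probe sets of the 8 genes fell into no single pattern. The pregnant mean of the main probe sets was 36.4% of the virgin mean for Lum, 48.9% for Ogn, 62.5% for Bgn, 63.0% for Omd, 72.8% for Dcn, 92.7% for Aspn, 122% for Prelp and 168% for Fmod. Of these, Lum and Ogn had a called step in pregnancy, and the steps of the other 6 did not pass. In lactation the means were 3.39% of the virgin mean for Lum, 5.45% for Ogn, 12.1% for Dcn, 15.7% for Prelp, 16.5% for Omd, 17.1% for Aspn, 66.0% for Bgn and 188% for Fmod. The lactating signals of Prelp, Omd and Aspn lay under 260.4, the 95th percentile of the Y-linked probe sets, so no order is read among their percentages. Other probe sets of the same genes gave other percentages. Examples in pregnancy were 92.85% for Ogn, 78.6% for Prelp, 74.2% for Aspn and 57.8% for Dcn. Examples in lactation were 49.5% for Dcn, 23.3% and 28.0% for Bgn, and 70.8% for Fmod on 1456084_x_at. The timing read on 1 probe set of a gene can therefore differ from that on another.

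The genes whose course over the 6 arrays was nearest to that of Lum were found among 11333 other tested genes by the root mean square difference of their log2 values, each centred on its mean. They were Col5a2, a chain of the collagen that starts fibrils, at 0.329, C1qtnf1, a secreted C1q-like protein, at 0.340, Efemp1, a fibulin of elastic fibres, at 0.355, Pdgfra, a receptor used as a fibroblast marker, at 0.355, and Cfp, which encodes properdin of the complement system, at 0.364. Among the proteoglycan genes, Ogn was nearest to Lum at 0.395, followed by Dcn at 0.707 and Aspn at 1.02, and Fmod was farthest at 2.29. Col5a2 read 10407 and 8327 in the virgin pair, 3804 and 4616 in the pregnant pair, and 227 and 560.3 in the lactating pair. Pdgfra read 5138 and 4022.5 in the virgin pair, 1760.3 and 2225 in the pregnant pair, and 61.0 and 213 in the lactating pair. Their order of stages follows from their choice by nearness to Lum, and the lactating signals of Pdgfra lay under the 95th percentile of the Y-linked probe sets. The genes nearest to the mean course of all 8 were Cd1d1 at 0.092, Prpf38a at 0.10, Osbpl5 at 0.102, Pon3 at 0.116 and Osgepl1 at 0.126.

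Genes beside the proteoglycans on the chromosomes, which are not members of the family, were compared as a description. Beside Dcn and Lum, the log2 ratio of lactating to virgin glands was -0.71 for Btg1, -0.96 for Eea1, -0.27 for Atp2b1 and 0.11 for Poc1b, all nearer to 0 than that of either gene. Beside Aspn, Omd and Ogn it was 0.95 for Ippk, -0.48 for Bicd2, 0.84 for Nol8 and 0.63 for Iars. Beside Prelp and Fmod it was 2.48 for Zbed6, -1.82 for Snrpe, 0.79 for Btg2 and -3.10 for Chil1, a chitinase-like glycoprotein, which had signals of 1802 and 1897 in virgin glands and of 225 and 125 in lactating ones. Beside Bgn it was -1.42 for Haus7, -0.78 for Zfp275, 1.86 for Atp2b3 and 0.69 for Slc6a8. Of the family members within these clusters, Kera, keratocan of the cornea, read 190.4 and 212 in the virgin pair, 12.7 and 89.7 in the pregnant pair, and 28.5 and 30.3 in lactating glands. Epyc, a cartilage member, read 144 to 250.5 over all 6 arrays, and Optc, the opticin gene of the eye, 10.9 to 108, so these were dim throughout.

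Of 10 other family genes listed, 8 are on the array and 4 passed the filter on low signals. Podn, podocan, which binds collagen in the vessel wall, read 466 and 489.6 in the virgin pair, 237 and 369.8 in the pregnant pair, and 535 and 663 in the lactating pair. Its pregnant glands were lowest, and it rose by 0.89 ± 0.23 from pregnant to lactating glands (SE; adjusted p = 0.0261), the only call among the 4 in any comparison. Chadl, Epyc and Nyx had log2 ratios of lactating to virgin glands that did not pass, with 0.66 ± 0.34 for Nyx (adjusted p = 0.140) and 0.33 ± 0.30 for Epyc (adjusted p = 0.387). The median of the 4 was 0.31, beside -2.09 for the 8 genes described above. Epyc lay under 260.4, the 95th percentile of the Y-linked probe sets, in every array. So did Nyx in all but the lactating control, and Chadl in all control glands. Of the genes left out by the filter, Kera and Optc had lower mean signals in lactating than in virgin glands. Chad had a higher one, and the probe sets of Ecm2 went both ways. The medians therefore do not show that the other family genes differed from the 8.

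Of the collagens that these proteins bind, more chains were lower than higher in lactation. Of 15 tested chains of fibrils and fibril surfaces, 10 were called lower and 2 higher in lactating than in virgin glands, 9 lower and 1 higher than in pregnant glands, and in pregnancy 2 were lower and 1 higher than in virgin glands. For this and the lists that follow, the shares of all tested genes called lower and higher were 28.2% and 23.8% for lactating against virgin, 17.0% and 14.9% for lactating against pregnant, and 8.09% and 6.61% for pregnant against virgin. The 3 calls in pregnancy are near these shares. Col5a2 fell by 3.36 ± 0.32 from pregnant to lactating glands (SE; adjusted p = 0.00165), and Col1a2, a chain of the main fibrillar collagen, fell by 3.03 ± 0.23 (adjusted p = 0.000969). Their ratios to virgin glands were -4.50 and -3.48. In pregnancy Col14a1, which sits on fibril surfaces, fell by 1.25 ± 0.25 (adjusted p = 0.0186) and Col6a3, of the beaded filaments, by 1.11 ± 0.29 (adjusted p = 0.0411). Col9a1, a chain best known from cartilage, rose by 3.08 ± 0.36 in pregnancy (adjusted p = 0.00357) and stood 4.26 above virgin glands on the log2 scale in lactation. The cartilage and bone genes Col2a1, Acan, Comp and Ibsp were dim in all 6 arrays, with a highest signal of 383, and were not tested. Col2a1 read 92.0 and 124.3 in the virgin pair, 17.3 and 31.9 in the pregnant pair, and 382.6 and 319.0 in the lactating pair. Both of its lactating glands were thus highest, as for Col9a1. For Acan, the lactating glands, at 282.5 and 175.2, lay above both virgin glands, at 44.4 and 118.1, and overlapped the pregnant pair. For Comp and Ibsp, the lactating glands overlapped those of both other stages. The median of the 15 was -1.88 for lactating against virgin. Without the pregnant mutant, fewer of these chains were called for lactating against pregnant. For pregnant against virgin, fewer were called without the pregnant control or without the virgin control, and more without either lactating array. The calls over all genes moved in the same directions.

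Enzymes that process and cross-link collagen were counted next. Of 13 tested, 8 were called lower and 1 higher in lactating than in virgin glands, 6 lower and 1 higher than in pregnant glands, and none in pregnancy. Loxl1, a lysyl oxidase, had a log2 ratio of -3.78 ± 0.35 to virgin glands (SE; adjusted p = 0.000276). Pcolce2, which speeds the trimming of procollagen, fell by 3.32 ± 0.29 from pregnant to lactating glands (adjusted p = 0.00130). The one gene called higher was Plod3, a lysyl hydroxylase, at 1.63 ± 0.19 against virgin glands (adjusted p = 0.000643).

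The enzymes that build the sugar chains were called lower and higher in numbers near those of all genes. Of 16 tested genes for chondroitin and dermatan sulphate, the chains of decorin and biglycan, 6 were lower and 4 higher in lactating than in virgin glands, 3 lower and 4 higher than in pregnant glands, and 2 lower in pregnant than in virgin glands. Dse, the epimerase that turns chondroitin into dermatan sulphate, was lower by -1.95 ± 0.26 against virgin glands (SE; adjusted p = 0.000904), and Chst15, a sulphotransferase, by -1.96 ± 0.32 (adjusted p = 0.00216). Ust, the uronyl sulphotransferase, was higher by 3.09 ± 0.37 (adjusted p = 0.000681), and B3gat3, which completes the linker to the core protein, by 1.37 ± 0.26 (adjusted p = 0.00368). In pregnancy, Chsy1, a chondroitin synthase, fell by 1.38 ± 0.23 (adjusted p = 0.0111) and Ugdh, which makes the glucuronate precursor, fell by 1.21 ± 0.24 (adjusted p = 0.0171).

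Of 6 tested genes for keratan sulphate, the chain of lumican, 2 were lower and 2 higher in lactating than in virgin glands, 2 were higher than in pregnant glands, and 1 was lower and 1 higher in pregnant than in virgin glands. Chst1, the sulphotransferase for its galactose, was at -1.63 ± 0.19 against virgin glands (SE; adjusted p = 0.000647). B4galt1, a galactosyltransferase that also forms lactose synthase, was at 2.30 ± 0.21 (adjusted p = 0.000271) and B3gnt7, which extends the chain, at 1.36 ± 0.32 (adjusted p = 0.0101). The median of the list was 0.50 for lactating against virgin, where that of the 8 proteoglycan genes was -2.09.

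Proteoglycans of other families were called both lower and higher. Of 17 tested, 7 were lower and 2 higher in lactating than in virgin glands, 1 lower and 1 higher than in pregnant glands, and 3 lower and 1 higher in pregnant than in virgin glands. Vcan, versican of the loose matrix, had a log2 ratio of -1.83 ± 0.33 to virgin glands (SE; adjusted p = 0.00325), and Srgn, serglycin of blood cell granules, of -2.49 ± 0.24 (adjusted p = 0.000339). Sdc4, a cell surface syndecan, was higher by 0.95 ± 0.23 (adjusted p = 0.0102). The counts against pregnant glands are below the shares of all genes, and the median for lactating against virgin was -0.34.

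Among 9 tested proteases that can cut these proteoglycans, 5 were lower and none higher in lactating than in virgin glands, 6 were lower than in pregnant glands, and 3 were lower and 1 higher in pregnant than in virgin glands. Htra1, a serine protease, had a log2 ratio of -3.25 ± 0.21 to virgin glands (SE; adjusted p = 0.000102) and Mmp3, stromelysin, of -3.19 ± 0.19 (adjusted p = 8.844e-05). Of 19 tested receptors and growth factors that these proteoglycans bind, 5 were lower and 3 higher in lactating than in virgin glands, 4 lower and 4 higher than in pregnant glands, and 4 lower and 3 higher in pregnant than in virgin glands. The counts in lactation are near the shares of all genes. Lrp1, an endocytic receptor for decorin, was at -2.03 ± 0.23 against virgin glands (SE; adjusted p = 0.000537). Tgfb3, a TGF-beta that decorin can hold, was at 2.23 ± 0.32 (adjusted p = 0.00131), and Cd14, which works with the Toll-like receptors of biglycan, at 2.28 ± 0.38 (adjusted p = 0.00231). Tlr2 rose by 1.74 ± 0.24 in pregnancy (adjusted p = 0.00535), while Cd44 fell by 1.93 ± 0.21 (adjusted p = 0.00315).

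**Figure D4:**
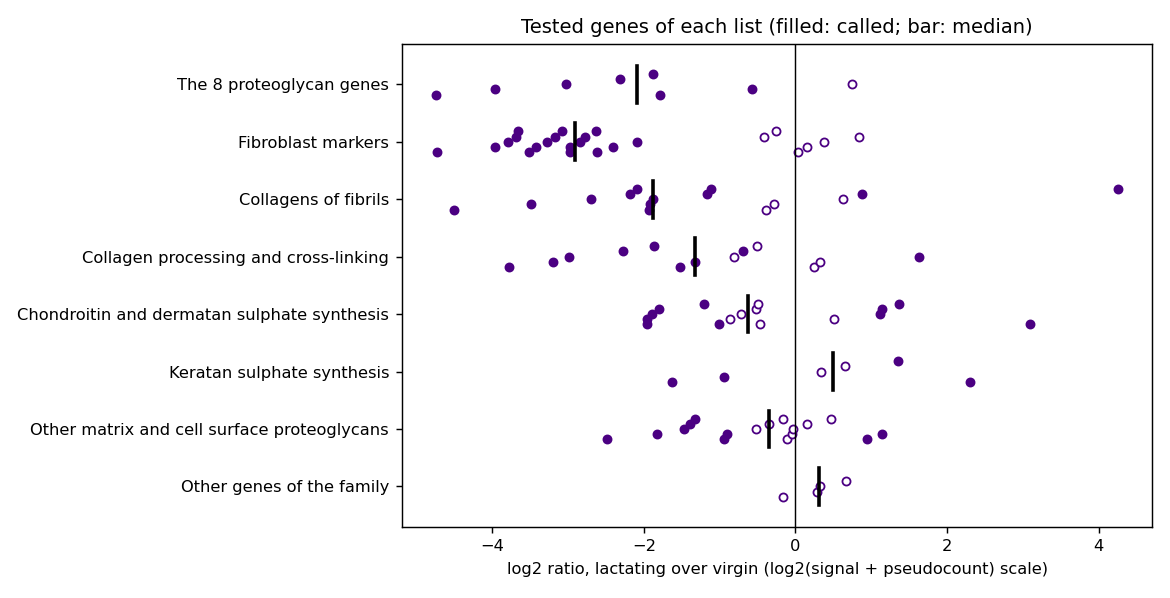
Log2 ratio of lactating to virgin glands (log2(signal + pseudocount) scale) of every tested gene of 8 lists, with filled points for genes past an adjusted p of 0.05 and a bar at the median of each list. The 8 proteoglycan genes have a median of -2.09, the fibroblast markers of -2.91 and the genes for keratan sulphate of 0.50.

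Markers of cell types moved with the stages too. Of 24 tested fibroblast markers, 12 were lower and none higher in pregnant than in virgin glands, 17 were lower and 1 higher in lactating than in pregnant glands, and 18 were lower and none higher in lactating than in virgin glands, with medians of -1.08, -1.80 and -2.91. Their summed signal was 193240 in the control and 172512 in the mutant among virgin glands, 89419 and 91251 in the pregnant pair, and 22180 and 29992 in the lactating pair. That of the 8 proteoglycan genes was 46956 and 43174, 26883 and 26188, and 5881 and 6200. Fewer fibroblast markers were called lower in pregnancy without the pregnant control or without the virgin control, and so were fewer of all genes. The part of the fibroblast markers in the proteoglycan results was not tested.

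Other cell types also differed between the stages. The summed signal of 12 skeletal muscle markers was 45111 and 15936 in the virgin pair, 170311 and 193602 in the pregnant pair, and 86355 and 82413 in the lactating pair, and 12 of 12 were higher in pregnant than in virgin glands. That of 16 milk and secretory epithelium markers was 169951 and 207446, 403036 and 301726, and 436186 and 482191, with 9 of 16 higher in pregnant and 9 of 16 in lactating glands against virgin. Of 14 immune markers, 9 were lower in pregnant and 11 in lactating than in virgin glands, and none was higher. Of 15 endothelial markers, 5 were lower and 1, Plvap, higher in pregnant glands, and 9 were lower and none higher in lactating glands. Of 12 adipocyte markers, 3 were lower and 1 higher in pregnant glands and 7 lower and 1 higher in lactating glands, where the higher one was Cidea in both, at log2 ratios of 2.04 and 3.71. Among all genes, 8.09% were lower and 6.61% higher in pregnant, and 28.2% lower and 23.8% higher in lactating glands. In lactating against virgin glands, 2 of 12 myoepithelial and pericyte markers were lower and 5 higher, 3 of 5 skin and hair markers were higher, 3 of 4 nerve markers were lower and 1 higher, and 1 of 2 cartilage and bone markers was higher. Their part in the results was not tested.

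The Brca1 mutation was compared over the 3 pairs with the stage as a block. None of the 8 genes was called, as 0.0% of the 11341 genes were, of which 534 had an unadjusted p under 0.05 with limma. Over the 8 genes the median ratio was -0.02 on the log2 scale, beside 0.03 over all genes. Lum was at 0.10 ± 0.15 (SE, n = 3 pairs; limma adjusted p = 0.957), Dcn at 0.11 ± 0.16 (adjusted p = 0.959) and Omd at 0.09 ± 0.26 (adjusted p = 0.980). Ogn was at -0.22 ± 0.20 (adjusted p = 0.937), Fmod at -0.14 ± 0.29 (adjusted p = 0.973) and Aspn at 0.33 ± 0.23 (adjusted p = 0.932). The ratio largest in size was that of Prelp, -0.76 ± 0.41 (adjusted p = 0.932). Its signals in the pregnant pair, 584 in the control and 112 in the mutant, were the farthest apart of the 8 genes.

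Bgn was the only one of the 8 main probe sets with 1 direction in all 3 pairs. It was lower in each mutant, at log2 ratios of -0.41 among virgin, -0.38 among pregnant and -0.08 among lactating glands. Its mean was -0.29 ± 0.16 (SE, n = 3 pairs, limma adjusted p = 0.932). Among all tested genes, 10.6% were lower and 15.3% were higher in all 3 mutants. A single direction in 1 of the 8 genes is therefore no excess over all genes. The other Bgn probe sets were also lower in each mutant. Within single pairs, which carry no test, 0 of the 8 main probe sets differed by 2-fold or more in the virgin pair, 1 in the pregnant pair (Prelp) and 1 in the lactating pair (Fmod), against 2.71%, 1.94% and 6.38% of genes. All 6 Fmod probe sets were higher in the virgin mutant than in its control, and all 6 were lower in the lactating mutant. The brighter Prelp probe set, 1416321_s_at, had a log2 ratio of mutant to control of -0.67 ± 0.22 (SE; adjusted p = 0.976 over 19480 probe sets).

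**Figure D5:**
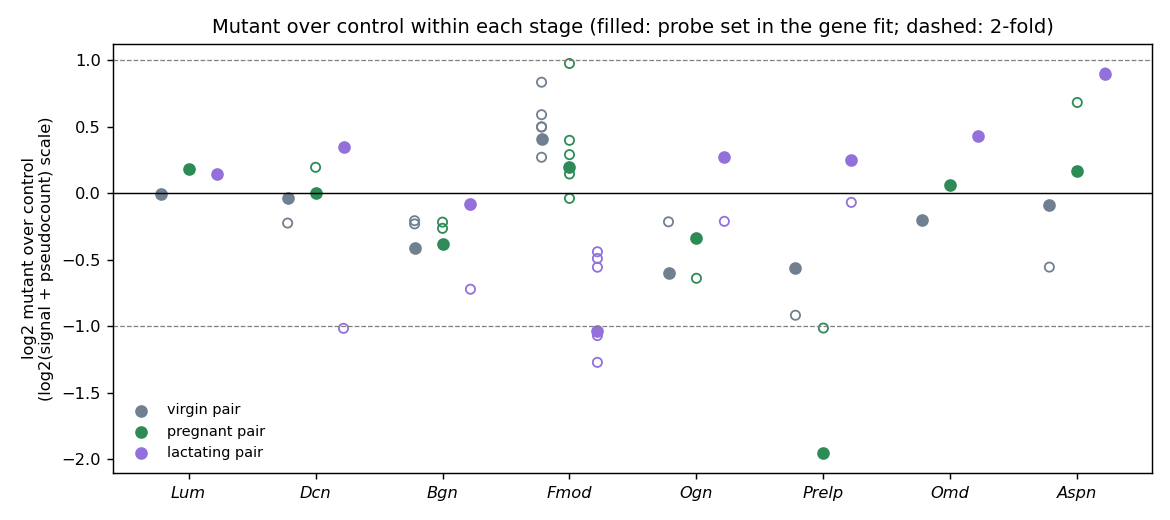
Log2 ratio of mutant to control (log2(signal + pseudocount) scale) within the virgin, pregnant and lactating pair for all 19 probe sets, filled for the probe set used in the gene fit, with dashed lines at a 2-fold difference. Prelp in the pregnant pair and Fmod in the lactating pair are the filled points beyond the lines, and all Bgn points lie below 0.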

How the data were processed

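Total RNA of whole glands was labelled with biotin and hybridised to a mouse expression array, per the labels. The authors deposited 1 MAS5 signal intensity per probe set; the submitters' processing notes name MAS5 without a version. Detection calls were not used here. Each gene was represented by its brightest probe set, one ending in _x_at or _s_at only where it had no other, and genes whose mean log2(signal + 52.1) lay under 7.715, the probe sets' median, were left out; 52.1 is the 25th percentile of all values. The 11341 genes left, and separately 19480 probe sets, were fitted with limma 3.58.1 in R 4.3.3 (eBayes with a variance trend, two-sided, 2 residual degrees of freedom). Mutant was compared with control with stage as a block, and stages with genotype as a term. P-values were adjusted over all genes by the Benjamini-Hochberg method.

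The 8 genes, the lists and the tests were chosen with earlier results of these data known. Named genes are the 8, their relatives and neighbours, the nearest genes to Lum and to the mean, and, per list and comparison, up to 2 called genes in each direction; some are left out for brevity. Alternatives covered normalization, pseudocount, filter, choice of probe set, variance trend, model terms and each array or pair left out. Precision is limited by the number of arrays. Plots were made with matplotlib 3.10.9.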

Additional observations from a re-analysis of the deposited data

Results flagged for a closer look

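In Fmod the mutant was above its control in the virgin pair, at a log2 ratio of 0.41 on the main probe set, and below it in the lactating pair, at -1.03. The Aspn mutant stood at -0.087 against its control in virgin glands, at 0.17 in pregnant and at 0.90 in lactating glands. Dcn was at -0.032 in virgin and 0.003 in pregnant glands, both close to 0. These 3 genes have more than 1 probe set, and each is listed because all of them differed one way between mutant and control at one stage and the other way at another. With 1 pair per stage the difference was not tested.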

How the results depend on the processing

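The count of called genes for pregnant against virgin, 2, was 1 after quantile normalization, with the mean over a gene's probe sets or without a variance trend, and 1 to 3 over the arrays left out. With an array left out, its stage has 1 mouse, which is assumed to vary like the others. Ogn lost its call under those 3 alternatives, and without the pregnant control, the pregnant mutant or the virgin control (adjusted p = 0.143, 0.160 and 0.306). Bgn was called there after median centring (adjusted p = 0.0481) and without the lactating arrays (0.0294). The counts for lactating against pregnant, 6, and against virgin, 7, also varied with the array left out. Without the lactating mutant, Fmod was at 1.41 for lactating against virgin, in the direction opposite to the other genes. None of the 8 was called for mutant against control in any setting.

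Prelp and Omd lost their calls for lactating against pregnant without the pregnant control (adjusted p = 0.362 and 0.128) or the lactating control (0.166 and 0.0641), and Omd without the pregnant mutant (0.118). Against virgin glands, Prelp lost its call without the virgin mutant, the virgin control or the lactating control (0.108, 0.0829 and 0.113). Bgn lost it there after quantile normalization, without a variance trend or genotype term, and without any array but the lactating mutant (adjusted p from 0.0536 to 0.230 over these settings).

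Signs turned only in values that were not called in the main setting. For pregnant against virgin, Prelp was at 0.032 with the higher pseudocount and from -0.94 to 0.86 over the arrays left out, and Aspn from -0.42 to 0.20. For lactating against pregnant, Bgn was at -0.32 after median centring, -1.01 with the mean of probe sets, where it was called, and from -0.069 to 0.25 over the arrays left out. Fmod was there at -0.0009 after quantile normalization, -0.35 after median centring, -0.44 with the mean of probe sets, -1.65 with the brightest probe set of any type, where it was called, and from -0.61 to 0.73 over the arrays left out. For lactating against virgin, Fmod was at -0.51 with the brightest probe set of any type. For mutant against control, Dcn was at -0.12 and Fmod at 0.012 with the mean of probe sets. Without the lactating pair, Dcn was at -0.015, Fmod at 0.30 and Omd at -0.072, and over the pairs left out Dcn ranged from -0.015 to 0.18, Fmod from -0.42 to 0.30 and Omd from -0.072 to 0.24. The causes were not tested.

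Over all genes, 1667 calls for pregnant against virgin became 329 without the virgin control, 378 without the pregnant control, 839 without the pregnant mutant, 888 without the virgin mutant and 2624 without the lactating arrays. The 3614 calls for lactating against pregnant became 1138 without the pregnant mutant, 1390 without the pregnant control, 2341 without the lactating control and 2105 with a filter at the 75th percentile, which tests 6674 genes in place of 11341. The 5895 calls for lactating against virgin became 3385 without the virgin control and 3513 under that filter. Without a filter the share of higher among calls was 56.7% for lactating against pregnant and 55.5% against virgin. Dim signals limit the main probe sets of Prelp and Omd in 4 arrays each and of Aspn in both lactating arrays, which lay under 260.4, the 95th percentile of the Y-linked probe sets. Ogn in lactation, Lum in the lactating control and Fmod in both virgin glands and the lactating mutant lay under 483.5, the highest Y-linked signal. So did the main probe sets of Omd in all 6 arrays and of Prelp in all but the pregnant control.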
